A study of Mus musculus with 8 samples.

Results

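Of the 8 arrays of mouse perigonadal white adipose tissue (pgWAT), 3 carried the transcript of Adam7 above an intensity of 400 and 5 did not. The 3 arrays were chosen by this measured value, the intensity of probe ILMN_2683204, and by nothing in the sample labels. They were Con 2, FKO 1 and FKO 3, whereas Con 1, Con 3, Con 4, Con 5 and FKO 2 lay at or under 400. Adam7 encodes a membrane protein of the ADAM family that the epididymis makes and passes to sperm. Since the split was selected on an expression value, all differences across it are descriptions, with no test. They say which genes ran with Adam7 and not that a genotype or treatment changed them.

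The epididymis is the coiled duct that joins the testis to the vas deferens, and in male mice pgWAT adjoins it. Its initial segment, caput, corpus and cauda each secrete their own set of proteins into the lumen, where sperm mature and are stored. Principal cells make most of this secretion, which is rich in beta-defensins, protease inhibitors with WFDC, Kunitz or Kazal domains, lipocalins, cystatins and members of the RNase A family. Clear cells acidify the lumen, basal cells line the base of the epithelium, and smooth muscle surrounds the duct.

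All mice were male, of the B6 strain and 15 weeks old by their labels, and had been fed a high-fat diet (HFD) for 3 days. The 5 Con mice were littermates with the OGT flox allele on their X chromosome and no Cre (OGT flox/Y), and the 3 FKO mice carried Adiponectin-Cre as well, so that the promoter of an adipocyte gene drives the deletion. The methods start the diet at a younger age and count the groups the other way round, and the labels were used here. The RNA was that of whole dissected fat, so the stromal, vascular and immune cells of FKO mice keep their Ogt. In bulk RNA, fewer cells of a type and less RNA per cell cannot be told apart.

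The intensities are linear, were quantile-normalized by the authors and share a highest value of 18023. Values at or under 106.1 were read as background, which had its mode at 98.5. Of 25697 probes, 13877 (54.0%) exceeded that limit on at least 3 arrays and entered the comparisons. Ogt, which the Cre deletes, did not part the arrays by label. Its brightest probe ranged from 188.4 to 267.4 over the arrays labelled Con and from 176.7 to 295.8 over those labelled FKO (log2 fold change 0.08 ± 0.23 (SE), two-sided exact permutation p = 0.768). All Ogt probes divided the arrays another way, lower on Con 1, Con 3 and FKO 2 than on the rest. The brightest read 176.7 to 198.9 on those arrays and 231.8 to 295.8 on the others, among them Con 2, FKO 1 and FKO 3. What set these arrays apart was not tested. Whether the Ogt probes lie in the deleted part is not settled, so this is no check of the deletion. Con and FKO are used as labels only. Adipoq, the adipocyte hormone that defines the tissue, read 7496 on FKO 3 and 9337 to 10666 on the 7 others.

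Adam7 was graded rather than on or off. Its intensity was 7925 on FKO 3, 3939 on FKO 1 and 530.6 on Con 2. On the other arrays it was 220.8 on Con 4, 196 on Con 3, 141.8 on Con 1, 132.1 on Con 5 and 117.1 on FKO 2. All 8 values lay above the background limit, and no array lay between 220.8 and 530.6. The mean over the 3 arrays exceeded that over the 5 by 4.43 on the log2 scale (SD 2.08, n = 3, and SD 0.52, n = 5), where log2 values follow a background correction that compresses low signals.

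The other 3 marker genes of the epididymis ranked the 3 arrays in the same way. They were chosen with earlier results of these data known, so this is no independent sign. Rnase12, of the RNase A family, read 3808 on FKO 3, 2263 on FKO 1 and 323.5 on Con 2, against 97.07 to 117 on the other 5. Wfdc10, a putative protease inhibitor, read 3245, 2040 and 372.8 on the same arrays, against 99.18 to 118.3. Defb38, a beta-defensin of the epididymal epithelium, read 6612, 5217 and 763.1, against 92.49 to 130.7. Thus Rnase12, Wfdc10 and Defb38 were near background on the 5 arrays where Adam7 was at or under 400, and were well above it on Con 2. The log2 differences were 4.37 for Rnase12, 4.28 for Wfdc10 and 5.44 for Defb38.

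**Figure D1:**
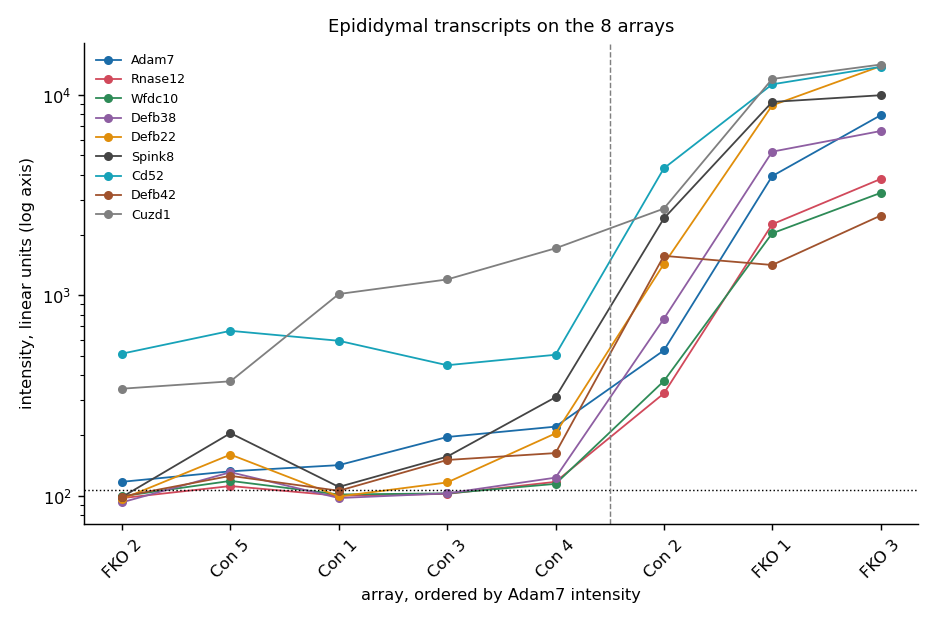
Intensity (linear units, log axis) of 9 genes on each of the 8 arrays, ordered from the lowest Adam7 intensity (FKO 2) to the highest (FKO 3), with 1 point per array. The dotted line is the background limit of 106.1 and the dashed line parts the 5 arrays at or under 400 of Adam7 from the 3 above, where each of the 9 genes was higher than on any of the 5.

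The genes that ran with Adam7 were taken as those whose values put FKO 3 above FKO 1, FKO 1 above Con 2 and Con 2 above the highest of the other 5 arrays, with a difference of means of at least 1 on the log2 scale. Of the 13877 tested probes, 110 did so (0.793%), and 113 (0.814%) lay above the other 5 arrays in any order of the 3. With 1 probe per gene, the brightest, 91 of 9648 genes were in the Adam7 order (0.943%). The differences of the 110 probes ran from 1.01 to 6.0 with a median of 1.94, beside a median of -0.03 over all tested probes. In 53 of them the difference was at least 2. Just inside the limit of 1 lay Glb1l2 (1.01) and Pip5k1b (1.02), and just outside it Prss8 (1.00) and Slc22a5 (1.00, both under 1 before rounding). Of the 110 probes, 29 passed the filter on low values only through these 3 arrays, and 29 were at or under the background limit on all 5 others. The summed intensity of the 91 genes was 190210 on FKO 3, 124059 on FKO 1 and 35922 on Con 2, against 14421 to 19069 on the 5 others. This was 2.26%, 1.48% and 0.427% of all signal on these arrays, and 0.171% to 0.227% on the rest.

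Promoters of 5 of these genes are shown because their transcripts ran together over the arrays: the 3 markers that have an entry, Wfdc15b, and Crisp4, which is known from the caput. The sequences are the 250 bases before the start of the gene, 5′ to 3′ on its strand, from RefSeq (GRCm38.p6). Capitals mark 2 motifs, searched on both strands, the hexamer TGTTCT that the androgen receptor binds (AGAACA on the other strand) and AGGAAG of the ETS family (CTTCCT on the other strand). The TATA box, TATAAA, was searched as well. The motifs do not overlap each other here.
Rnase12, chr14:51057243-51057492, minus strand: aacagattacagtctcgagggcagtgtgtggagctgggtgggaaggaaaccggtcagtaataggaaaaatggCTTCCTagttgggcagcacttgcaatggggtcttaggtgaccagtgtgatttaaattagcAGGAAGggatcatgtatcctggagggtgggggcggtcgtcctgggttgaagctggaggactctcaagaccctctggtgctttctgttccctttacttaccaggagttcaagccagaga
Wfdc10, chr2:164655796-164656045, plus strand: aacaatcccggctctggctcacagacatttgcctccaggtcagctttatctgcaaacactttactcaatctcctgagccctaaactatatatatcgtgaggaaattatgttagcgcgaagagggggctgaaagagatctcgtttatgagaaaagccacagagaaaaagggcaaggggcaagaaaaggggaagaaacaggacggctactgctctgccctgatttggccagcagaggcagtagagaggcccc
Defb38, chr8:19026569-19026818, minus strand: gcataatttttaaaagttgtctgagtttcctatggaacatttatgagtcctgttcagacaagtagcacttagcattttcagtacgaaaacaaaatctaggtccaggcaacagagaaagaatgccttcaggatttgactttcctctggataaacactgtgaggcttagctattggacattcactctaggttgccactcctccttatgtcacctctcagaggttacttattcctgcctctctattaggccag
Wfdc15b, chr2:164221664-164221913, minus strand: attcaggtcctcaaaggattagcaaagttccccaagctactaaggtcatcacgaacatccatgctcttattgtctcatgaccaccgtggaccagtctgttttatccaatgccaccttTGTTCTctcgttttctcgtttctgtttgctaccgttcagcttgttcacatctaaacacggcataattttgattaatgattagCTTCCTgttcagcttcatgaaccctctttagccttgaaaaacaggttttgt
Crisp4, chr1:18145903-18146152, minus strand: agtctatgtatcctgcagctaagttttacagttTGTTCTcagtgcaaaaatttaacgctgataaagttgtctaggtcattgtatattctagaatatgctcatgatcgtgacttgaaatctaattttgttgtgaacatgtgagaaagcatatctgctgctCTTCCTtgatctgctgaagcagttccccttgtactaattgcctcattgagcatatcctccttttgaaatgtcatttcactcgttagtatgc

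Of the 91 genes, 68 have a promoter in the table. TGTTCT was found in 17 of these 68 (25%) and in 15.6% of the promoters of 13335 genes on the array. AGGAAG was found in 24 of 68 (35.3%) and in 32.1%, and TATAAA in 8 of 68 (11.8%) and in 13.1%. These are counts of letters in a short window and not of sites bound by a factor.

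Beta-defensins, small cationic antimicrobial peptides that also coat sperm, made up the largest family. The family has 43 genes on the array. Of these, 15 were at or under background on all 8 arrays, 22 were tested and 16 were in the Adam7 order, beside 0.943% of all tested genes. Among the 16, Defb2, Defb14, Defb23, Defb26, Defb39, Defb40, Defb48 and Spag11a passed the level filter only through the 3 arrays above 400. The 16 of 22 is thus not independent of the choice of arrays. Defb22, which is part of the sperm surface coat, read 13932 on FKO 3, 8885 on FKO 1 and 1433 on Con 2, against 96.12 to 204.3 on the others (log2 difference 6.0). Defb28 read 5782, 4273 and 684 on these 3 arrays, against 100.6 to 133.3, and Defb37 read 4840, 3343 and 577, against 95.49 to 118.3. Defb11, Defb26, Defb43 and Defb23 had differences of 3.69, 3.46, 3.43 and 3.38. The smallest differences among the 16 were those of Defb29 (1.08), Defb14 (1.12) and Defb48 (1.12). The median difference over the 43 genes on the array was 0.13.

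Defb42 broke the order. It read 2500 on FKO 3, 1574 on Con 2 and 1417 on FKO 1, against 98.83 to 162.9 on the others. It was thus higher on Con 2 than on FKO 1, whereas Defb22, Defb28, Defb37 and Defb38 were lower on Con 2 than on FKO 1 by a wide margin. Defb30 was at its highest on Con 2, with 145.1, and read 125 on FKO 3, 108.5 on FKO 1 and 97.15 to 102.3 on the others. It was thus tested but not in the order.

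Protease inhibitors were the next group. Of 20 genes with WFDC or Kunitz domains on the array, 14 were tested and 8 were in the Adam7 order, beside 0.943% of all tested genes. The median difference over the 20 was 0.62. Among the 8, Wfdc16 and Spint4 passed the level filter only through the 3 arrays above 400. Wfdc15b read 8178 on FKO 3, 5292 on FKO 1 and 1001 on Con 2, against 106.1 to 170.9 on the others. Wfdc13 read 4657, 2146 and 336.3, against 95.82 to 120.4. Eppin, an inhibitor that sits on sperm and binds seminal proteins, read 1801, 975.3 and 194.2, against 98.45 to 116.8. Wfdc6a, Wfdc6b, Wfdc16 and Spint4 were in the order too. Other members did not follow. Wfdc12 read 270.5 on FKO 3, 293.8 on FKO 1 and 382.5 on Con 2, against 239.2 to 789.7, and Wfdc2, whose human counterpart was first known from the epididymis, read 220.1, 202 and 386.8, against 144.1 to 380.6. Outside the list, the Kazal-type inhibitors Spink8 and Spink10 had differences of 5.70 and 3.71. Spink8 read 9982 on FKO 3, 9243 on FKO 1 and 2420 on Con 2, against 98.36 to 309.6.

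Other secreted and surface proteins of the duct were among the genes with the largest differences. Cd52, a lipid-anchored peptide that the distal epididymis and the vas deferens pass to sperm and that lymphocytes carry too, read 13837 on FKO 3, 11316 on FKO 1 and 4306 on Con 2, against 447.5 to 664.6 on the others. Ltf, the iron-binding lactoferrin, read 3369, 1173 and 269.4, against 102.5 to 118.2. Npy, the precursor of neuropeptide Y, read 3432, 1875 and 312.2, against 95.78 to 113.4. Ly6f, of the Ly6 family of surface proteins, had a difference of 4.25. Of 7 lymphocyte genes on the array, 4 were tested and 0 were in the order, with a median difference of -0.01 over the 7 and a range from -0.36 (Cd3g) to 0.16 (Cd79b). Cd79b, of the B cell receptor, read 129.5 on FKO 3 and 134 on FKO 1, against 112 to 120.8 on the 6 others. The part of lymphocytes in the Cd52 values was not tested. Rnase9 read 272.6 on FKO 3, 165.1 on FKO 1 and 109.8 on Con 2, against 95.93 to 100.2. Rnase11 was in the same order, with 254.9, 166.2 and 104.2 against 94.84 to 100.1, but exceeded background on too few arrays to be tested. Rnase13 lay between 98.08 and 103.9 on all 8 arrays.

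Markers of the segments did not all follow. The list for the initial segment and proximal caput has 8 genes on the array, of which 4 were tested and 0 were in the Adam7 order (differences from -0.07 to 0.24). Of those tested, Lcn2 (279.4 to 1106) and Dusp6 (637.4 to 906) were well above background on all 8 arrays. They thus report this segment poorly here. Lcn9 ranged from 92.82 to 103.2, Lcn10 from 97.88 to 105 and Ros1, a receptor kinase needed for the initial segment to form, from 96.15 to 106.3 over all 8 arrays. Lcn8 ranged from 110.8 to 116.6. For the caput, 11 genes are on the array, and 5 of 7 tested were in the order, beside 0.943% of all tested genes. Adam7, which set the order, is among the 5. Crisp4, Spag11a and Rnase9 passed the level filter only through the 3 arrays above 400. The count is thus not independent of the choice of arrays. Gpx5, the glutathione peroxidase secreted in bulk by the caput, ranged from 94.31 to 100.4, and Lcn5, its retinoid-binding lipocalin, from 97.84 to 104.6. Cst11, Spag11b, Ly6g5b and Ly6g5c read 114.8, 100.7, 101.3 and 95.49 on FKO 3, each within its own range on the 5 arrays at or under 400 or below it.

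The 5 caput genes in the order were Adam7, Crisp4, Lcn12, Spag11a and Rnase9. Crisp4, a cysteine-rich protein that binds sperm, read 831.8 on FKO 3, 560.3 on FKO 1 and 135.5 on Con 2, against 94.35 to 105.2 on the others. Lcn12, a lipocalin, read 996.8, 592.7 and 157.5, against 100.4 to 112.9. Spag11a read 381.4, 311.4 and 117.7, against 97.35 to 104.4, whereas its neighbour Spag11b, also a caput gene, stayed between 100.7 and 113.5 on all arrays. Of the markers fixed for principal cells, Crisp4 was thus in the order and Gpx5, Lcn5 and Lcn8 were not, so that only part of the epididymal repertoire was seen. No array here held epididymis alone, so a probe at background may be one that does not report its gene, and this was not tested.

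Of the genes known from the corpus, cauda and vas deferens, 6 are on the array and all 6 were tested. In the order were 3, namely Cd52, Eppin and Aqp9, beside 0.943% of all tested genes. The median difference over the 6 was 1.64. Aqp9, a water and glycerol channel of principal cells, read 1116 on FKO 3, 621 on FKO 1 and 400 on Con 2, against 122.5 to 245.7. Gpx3, a secreted glutathione peroxidase that adipose tissue makes as well, read 7271 on FKO 3 and 5384 on FKO 1, but its 2487 on Con 2 lay within the 1653 to 3288 of the others. Upk1b and Slc5a8 had differences of -0.25 and -0.29.

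**Figure D2:**
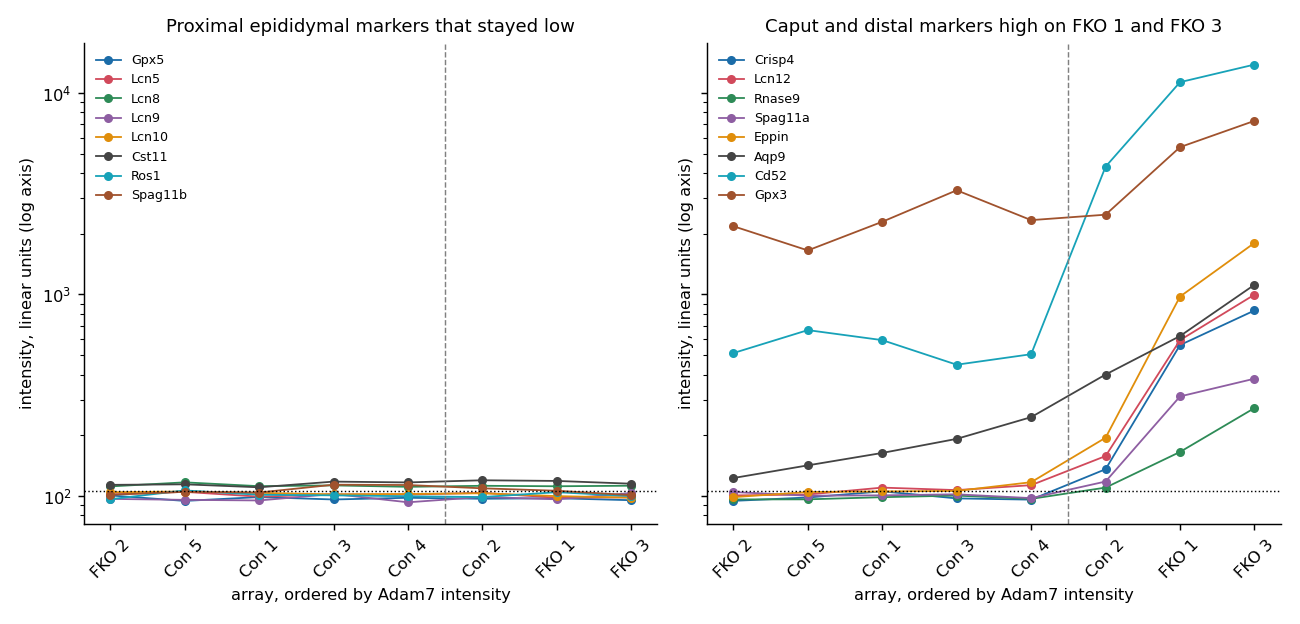
Intensity (linear units, log axis) by array, ordered by Adam7 intensity, of 8 proximal markers (left) and of 8 caput and distal markers (right), with the background limit dotted and the split at 400 of Adam7 dashed. The left panel stays near background on all 8 arrays, and in the right panel all 8 genes are highest on FKO 3 and next highest on FKO 1.

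Markers of the cell types of the duct were mixed as well. Of 14 general epithelial genes on the array, 12 were tested and 3 were in the order (median difference 0.43), beside 0.943% of all tested genes. Cldn3, a tight junction protein, read 424.7 on FKO 3, 257.2 on FKO 1 and 165.3 on Con 2, against 102.7 to 120.6 on the others. Krt8, a keratin of simple epithelia, read 670.1, 403.7 and 388.5, against 149.4 to 370.5, so that Con 4 came close to Con 2. Esrp1, an epithelial splicing factor, had a difference of 1.06, and Cdh1 and Krt18, at 0.98 and 0.99, missed the minimum difference.

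Basal and clear cell markers were weak. Of 5 basal genes, 4 were tested and 0 were in the order, although Krt14, Krt15, Trp63 and Cldn1 were all highest on FKO 3 and next highest on FKO 1. Krt14 read 492.5 on FKO 3, 265.5 on FKO 1 and 172.2 on Con 2, against 131.1 to 240.3, and Krt5 read at most 109.2. Of 8 clear cell genes, 4 were at or under background on all arrays and 0 were in the order. The highest values of the clear cell markers Foxi1, Atp6v1b1, Slc4a9 and Atp6v0d2 were 124.2, 112.2, 103.4 and 103.4. Atp6v1c2, a subunit of the proton pump, read 287 on FKO 3 and 187.2 on FKO 1, against 122.2 to 145.4 on the 6 others.

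Sperm transcripts ran with Adam7 in part. Of 9 on the array, 6 were tested and 3 were in the order, beside 0.943% of all tested genes. The median difference over the 9 was 0.68. Their summed intensity was 2638 on FKO 3, 1684 on FKO 1, 1098 on Con 2 and 898.3 to 1092 on the others. Odf1, of the outer dense fibres of the sperm tail, read 663.6 on FKO 3, 350.3 on FKO 1 and 151.4 on Con 2, against 97.12 to 122.6. Prm1, the protamine that packs sperm DNA, read 561.4, 299.2 and 175.4, against 104 to 171.6, where 171.6 was Con 4. Smcp, of the sperm mitochondrial sheath, read 277.9, 182.4 and 116.3, against 96.77 to 108.6. Tnp2 and Akap4 stayed at 105.8 or under on all arrays.

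Markers of other organs of the male tract lay near background in most, but not all, cases. Among Leydig cell markers, Insl3, Star and Cyp11a1 read at most 98.66, 101.6 and 105.1. Cyp17a1, a steroid-making enzyme on that list, was in the order, with 736.4 on FKO 3, 440.6 on FKO 1 and 134.7 on Con 2 against 95.77 to 104.4. Of 6 Sertoli cell genes, Amh, Fshr and Gata1 were at or under background on all 8 arrays. The other 3 were above it on every array, namely Dhh (110.5 to 126), Sox9 (108.3 to 131.5) and Wt1 (192.4 to 361.1), which mesothelium expresses as well, with differences of -0.11, -0.07 and -0.17. The seminal vesicle markers Svs2, Svs4 and Svs5 read at most 101.5, 101.6 and 108.4, and the prostate markers Pbsn and Tgm4 at most 102.1 and 103.4. The lists for Sertoli cells, seminal vesicle, prostate and kidney each had 0 genes in the order.

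Con 2 stood apart in several smooth muscle genes. Actg2, a smooth muscle actin, read 3432 on Con 2, 703.4 on FKO 3 and 349.6 on FKO 1, against 203 to 634.3 on the other 5. Myh11, the smooth muscle myosin, read 863.3, 310.9 and 254.9 on the same arrays, against 161.9 to 358.6. Des, the intermediate filament of muscle, read 439.7, 205.1 and 193.7, against 190.2 to 235.2. Acta2, another smooth muscle actin and a bright one, set Con 2 apart less. It read 9544 on Con 2, 7846 on FKO 3 and 4657 on FKO 1, against 4182 to 6315, so that FKO 3 too lay above the other 5. The list of 8 genes summed to 15037 on Con 2, 9603 on FKO 3 and 6010 on FKO 1, against 5431 to 7877 on the others. All 8 genes exceeded background on at least 1 array, 7 were tested and 0 were in the Adam7 order. The part of this smooth muscle signal in the other values of Con 2 was not tested.

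**Figure D3:**
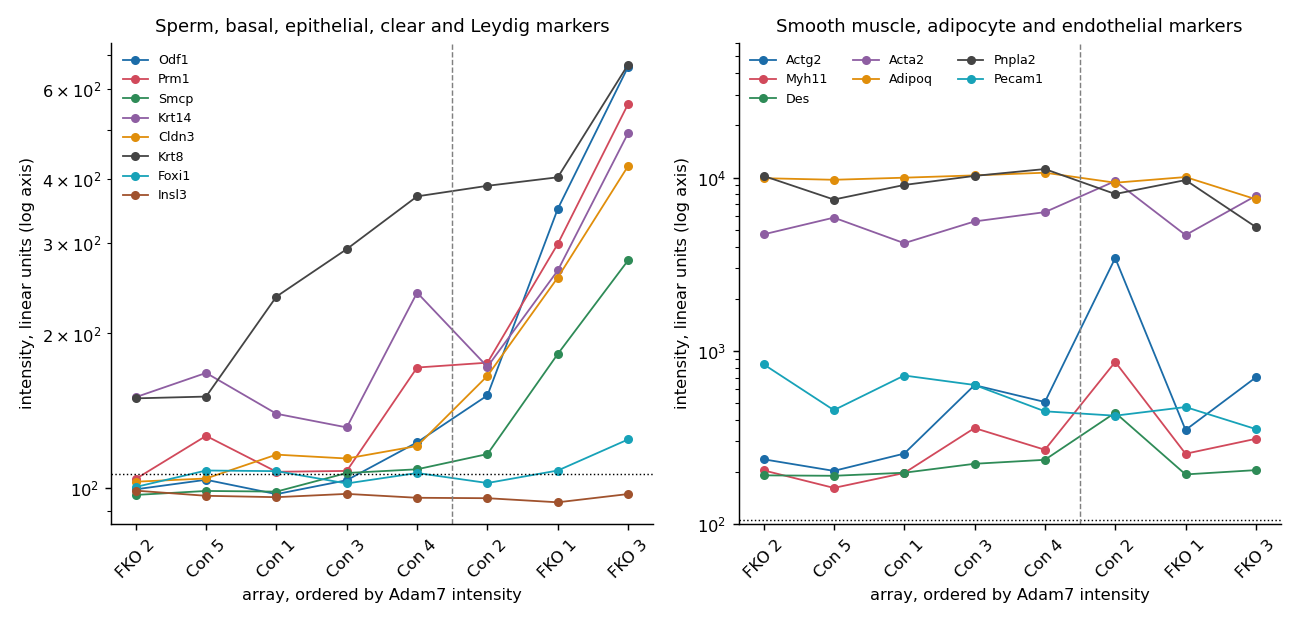
Intensity (linear units, log axis) by array, ordered by Adam7 intensity, of sperm, basal, epithelial, clear and Leydig cell markers (left) and of smooth muscle, adipocyte and endothelial markers (right). Odf1, Prm1 and Smcp are in the Adam7 order, Actg2, Myh11 and Des peak on Con 2, and Adipoq and Pnpla2 are lowest on FKO 3.

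Adipocyte genes did not part the 3 arrays from the 5, but several genes of fat were lower on FKO 3. Of 11 adipocyte genes, 11 were tested and 0 lay above or below in the sense used here, with a median difference of -0.03. Pnpla2, the lipase that starts triglyceride breakdown, read 5181 on FKO 3 and 7466 to 11195 elsewhere, so that FKO 3 had 0.507 of the median of the 5 arrays. Adipocyte markers differed in this. Adipoq and Lep had 0.751 and 0.963 of that median on FKO 3, but Plin1, Cidec and Lipe 1.14, 1.08 and 1.03. The 11 genes summed to 39059 on FKO 3, and to between 44889 and 51277 on the other 7 arrays. Endothelial genes had a median difference of -0.26 over 8 genes, and progenitor and fibroblast genes of -0.28 over 8. Pecam1, the endothelial adhesion molecule, read 353.7 on FKO 3, 422.7 on Con 2 and 474.1 on FKO 1, against 447.9 to 837 on the others, so that the groups overlapped. The level on FKO 3 was 0.556 of the median of the 5 arrays for Pecam1, 0.506 for Esam, an adhesion molecule of endothelium, and 0.535 for Pi16, a marker of progenitors.

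How much of the FKO 3 signal each of the other arrays carried was set out gene by gene. The net intensity, above the median of the 5 arrays at or under 400 of Adam7, was expressed as a percent of the net intensity on FKO 3. Over the 110 probes, FKO 1 carried a median of 53.3% (quartiles 46.5% and 59.2%) and Con 2 a median of 7.11% (quartiles 5.26% and 12.0%). The upper quartile was 1.27 times the lower for FKO 1 and 2.29 times for Con 2, so the shares spread more on Con 2. Some probes on Con 2 lay little above the 5 arrays. Slc7a4 read 168.8 there and at most 162.7 on the 5, and Ch25h 118.5 and at most 116.5. The part of noise in such small net values was not tested. For Adam7 the shares were 48.8% and 5.00%. Nearest to Adam7 in both shares, by the summed absolute difference over these 2 arrays, were Wfdc16, AY761185, Sat1, Kcnc4, Tfap2b, Eppin, Cabs1, Defb20, Wfdc13 and C4bp, with 0.687 to 4.43 percentage points. Sat1, a polyamine-acetylating enzyme, was expressed on all arrays, with 5019 on FKO 3, 3137 on FKO 1, 1578 on Con 2 and 1212 to 1541 on the others.

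Genes with a large share on Con 2 were of several kinds. Cd52 reached 28.5% of its FKO 3 signal on Con 2, Aqp9 24.8%, Spink8 23.0% and Defb43 17.2%. Serpina1f, an epididymal serpin, read 531.6 on Con 2 and 614.4 on FKO 1, against 1327 on FKO 3 and 97.65 to 123.4 on the others, a share of 34.8% on Con 2. Spink11 had 41.2%. Among the lists, the 3 distal genes in the order had a median share of 24.8% on Con 2 and the 5 caput genes one of 5.70%, with ranges of 5.25% to 28.5% and of 5.00% to 7.53%. Eppin, at 5.25%, thus stood with the caput genes. Gpx3, on the distal list but not in the order, had a share of 3.86%. Genes in the order had to be high on Con 2, and Adam7, which set the order, is among the 5 caput genes. These medians are thus no measure of the segments on Con 2. The 16 defensins had a median of 9.03% and the 8 WFDC and Kunitz genes one of 5.23%. Among the genes in the Adam7 order, Cuzd1, Defb22 and Cd52 came nearest to the highest value of the arrays, at 14205, 13932 and 13837 on FKO 3. Whether such bright probes were compressed was not tested.

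**Figure D4:**
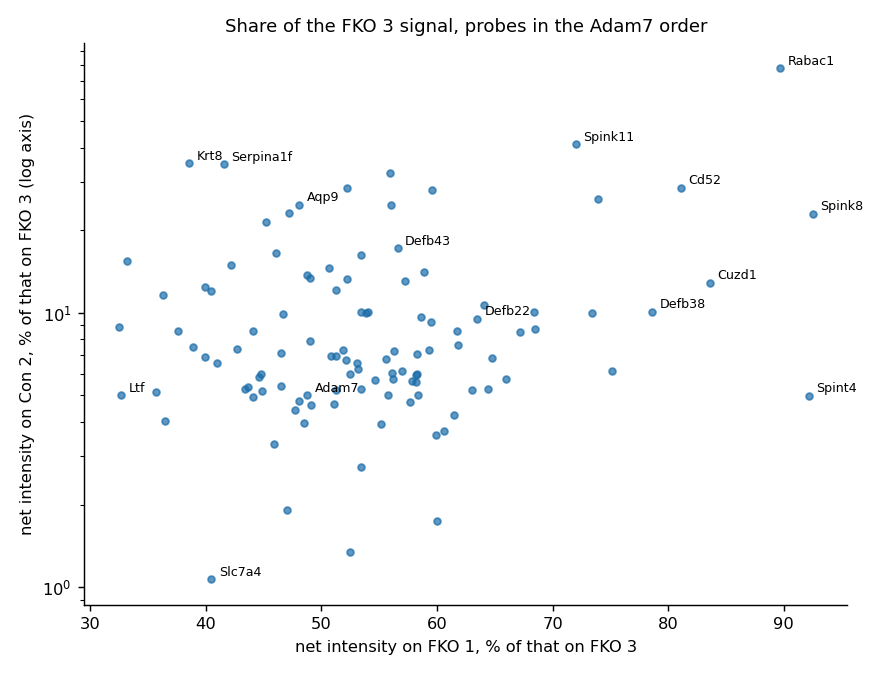
Net intensity on FKO 1 (horizontal axis, percent of that on FKO 3) against net intensity on Con 2 (vertical log axis, percent of that on FKO 3) for the 110 probes in the Adam7 order, 1 point per probe. Most points lie near 53.3% and 7.11%, with Rabac1, Spink11, Serpina1f, Cd52 and Spink8 higher on the vertical axis.

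The order of the 5 arrays at or under 400 was not used to choose the probes, except that all 5 had to lie below Con 2. Of the 110 probes, 81 exceeded background on at least 1 of the 5 arrays. Con 4 was the highest of the 5 in 53 of these 81 (65.4%), and FKO 2 the lowest in 42 (51.9%). Over all 13806 tested probes above background on 1 of the 5, these shares were 25.6% and 15.2%. Since probes move together, these shares carry no test. Defb22 read 204.3 on Con 4, 160.1 on Con 5, 116.2 on Con 3, 98.93 on Con 1 and 96.12 on FKO 2. Spink8 read 309.6, 204.9, 156.4, 110.4 and 98.36 on the same arrays. Con 4 was thus highest and Con 5 next in both genes, and FKO 2 was at background.

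A further set split the 5 arrays in another way. Con 1, Con 3 and Con 4 all lay above Con 5 and FKO 2 in 31 of the 81 probes (38.3%), beside 1246 of 13806 (9.03%). In 11 of the 81 (13.6%) the means differed by at least 0.5 on the log2 scale, beside 178 of 13806 (1.29%), again with no test. The 11 included Adam7 itself, Prom2, Ptgds, Kcnk1, Krt8, Aqp9, Cuzd1 and Akr1c19. Cuzd1, a secreted protein with CUB and zona pellucida domains, read 1717 on Con 4, 1200 on Con 3, 1015 on Con 1, 371.9 on Con 5 and 341.6 on FKO 2, beside 14205 on FKO 3, 12036 on FKO 1 and 2710 on Con 2. Akr1c19, an aldo-keto reductase, read 324.9, 251.8, 216.6, 146.5 and 129.8 on the 5 arrays in that order, and 3789 on FKO 3. Con 5 thus ranked next to Con 4 for Defb22 and Spink8 and near the bottom for Cuzd1 and Akr1c19. Lcn2, a lipocalin that is not in the Adam7 order, read 1102 on Con 4, 908.1 on Con 3 and 700.8 on Con 1, against 279.4 on Con 5 and 286.6 on FKO 2.

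**Figure D5:**
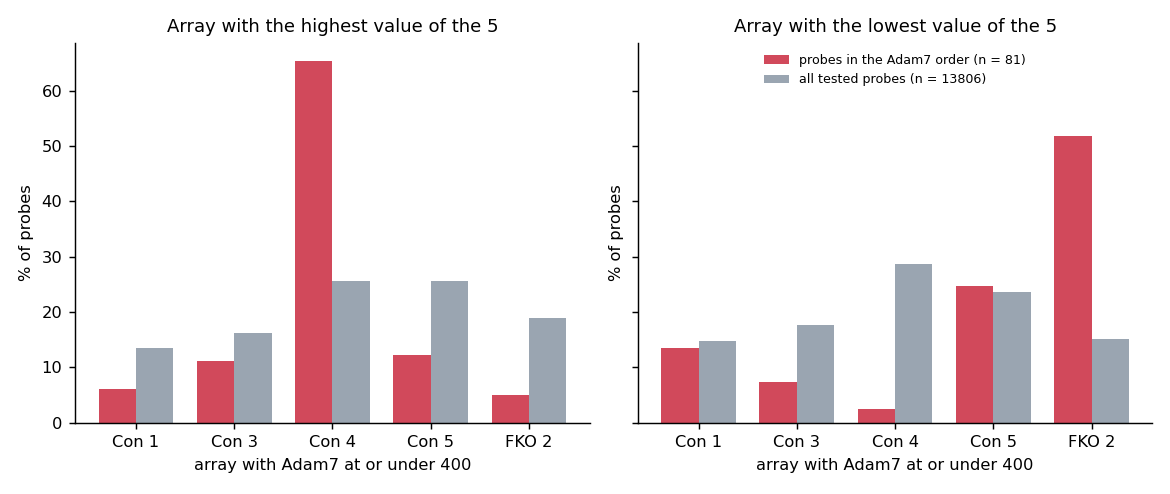
Percent of probes for which each of the 5 arrays at or under 400 of Adam7 had the highest (left) or the lowest (right) value, for the 81 probes in the Adam7 order above background on 1 of the 5 and for all 13806 such tested probes. Con 4 leads on the left with 65.4% against 25.6%, and FKO 2 on the right with 51.9% against 15.2%.

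Some of the 91 genes lie near each other in the genome. All 91 were placed on the mouse annotation (GRCm38.p6), and 33 of them fell in 10 runs with at most 5 other coding genes between members. The share of all array genes that fall in such runs was not counted, so the 33 are a description only. The longest run held Wfdc6a, Eppin, Wfdc6b, Wfdc16, Wfdc10, Wfdc13 and Spint4, 7 of the 10 coding genes in its span. In another, Defb23, Defb20, Defb22, Defb26, Defb28 and Defb29 were 6 of 6 coding genes. A further defensin run held Defb40, Defb37, Defb38, Defb39, Spag11a and Defb14, 6 of 9, where Defb12, Defb34 and Spag11b were not in the order. Beside Crisp4, the defensins Defb18 and Defb41 stayed between 98.91 and 108.8 and between 97.12 and 105.1 on all arrays. Family members share sequence, and probes of near-identical copies may read each other's transcripts. Of 12 genes with several tested probes, all probes were in the order in 7 (such as Eppin, Ramp3 and Tfap2b, with 3 each) and only some in 5 (Dnajc10, Pank1, Pgap2, Prom2 and Slc1a1). Probes that failed the level filter are left out of these counts. Among them, the second probes of Ltf, Kcnc4, Slc35f2 and Slco4a1 had differences of 0.11, 0.37, -0.01 and -0.03.

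A few probes in the order followed another division of the arrays. The dimmer of the 2 probes of Rabac1, a Golgi protein, read 2104 on FKO 3, 1967 on FKO 1 and 1810 on Con 2, and also 1516 on Con 4 and 1405 on Con 5, against 711.1 to 774.4 on Con 1, Con 3 and FKO 2. Its brighter probe was not in the order, since Con 4 (2123) lay above Con 2 (2121), and had a difference of 0.91. Glb1l2 behaved alike, with 1579 on Con 4 and 1599 on Con 5 against 935.1 to 964.5. All 3 arrays above 400 of Adam7 thus lay among the 5 arrays that these genes, and the Ogt probes, set apart. Against Con 4 and Con 5 alone, 113 probes were in the order, of which 105 were shared with the 110, and Glb1l2, Pank1, Pip5k1b, Rabac1 and 1 of the Ramp3 probes were lost. Only 5 probes (0.036%) lay below on the 3 arrays by at least 1. The dimmer of the 2 probes of Mfge8, which bridges dying cells to phagocytes, was one of these and read 1209 on FKO 3, 1271 on FKO 1 and 1284 on Con 2, but 1420 on Con 4 and 1632 on Con 5 as well, against 2975 to 4030 on Con 1, Con 3 and FKO 2. The brighter probe read 9501 to 10899 on the 3 arrays and 11195 to 16009 on the 5, a difference of -0.46, and was not among the 5 probes.

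By label, no probe differed between FKO and Con at an adjusted p under 0.05 (limma, Benjamini-Hochberg, 0 of 13877, 0%), although 593 had an unadjusted p under 0.05. The methods' t-test rule (p under 0.01, fold above 1.5), run on the tested probes, called 0 higher and 1 lower. It used values that were background-corrected and normalized again here. The paper reports many more genes by its rule on its own values, so the counts are not alike. FKO 1 and FKO 3 are 2 of the 3 arrays that chose the genes in the Adam7 order, so their fold changes between the labels are not independent of that choice. The log2 fold change of FKO over Con was 3.00 for Adam7 (SE 1.38, limma adjusted p = 1.00, two-sided exact permutation p = 0.125). It was 3.13 for Rnase12, 2.95 for Wfdc10 and 3.41 for Defb38 (exact permutation p = 0.107, 0.107 and 0.143, where the smallest p that 56 splits allow is 0.0179). FKO 2 was the lowest of all 8 arrays for Adam7, and Con 2 lay above it, so the labelled groups overlapped. The median over the 110 probes was 1.54, beside -0.02 over all tested probes.

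Leaving out FKO 2 turned this into calls. Without it, limma called 191 probes higher (1.38%) and 2 lower. Of the 191, 93 were in the Adam7 order, beside 110 of all 13877 tested probes (0.793%). The log2 fold change of Adam7 was then 5.06 (limma adjusted p = 0.00978). The FKO group of that fit was FKO 1 and FKO 3, the 2 arrays highest in Adam7, which chose these probes. Neither the calls nor this p-value is independent of that choice. Without the 3 arrays above 400 the fold change of Adam7 was -0.73, that of Rnase12 -0.24, that of Wfdc10 -0.22 and that of Defb38 -0.46, over 4 Con arrays and FKO 2 alone, and 0 probes were called. That fit has 1 FKO array, so the 4 Con arrays alone give the spread, and its signs follow from leaving out the arrays chosen for high Adam7, so it says nothing about stability.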

How the data were processed

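RNA of pgWAT from 8 mice was hybridized to 8 Illumina MouseRef-8 v2.0 arrays, grouped by their labels. The intensities were quantile-normalized by the authors before they were deposited, and their software and background step are not given in the sources used here. A second, non-normalized table was not used, since its 16 columns carry no sample names.

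Background was adjusted by normexp with an offset of 50, followed by quantile normalization and log2 transformation (limma 3.58.1, R 4.3.3). The background limit of 106.1 mirrors the lower tail of values under their mode. Probes above it on at least 3 arrays were tested for label with lmFit and eBayes (two-sided, Benjamini-Hochberg, threshold 0.05) over all 8 arrays. The p-values measure only the spread between these arrays, and their number limits the precision. Of 25697 probes, 23978 carry 1 gene symbol and 1719 none, and a gene is given by its brightest probe unless another is named. The code was tested on simulated data.

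The split by Adam7 was described with no test. The members, gene lists and rules were chosen with earlier results of these data known. Named genes were the 4 markers, the 15 largest differences, the 10 nearest to Adam7 and up to 4 per list with the defining markers, and others were named after their values were seen. The alternatives were no background correction, median centring, no filter, other minimum differences, any order, the methods' t-test, a replicate block and leaving out arrays. Fitting the 6 arrays of the block without it was added after seeing the data. Figures were drawn with matplotlib 3.10.9.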

Additional observations from a re-analysis of the deposited data

Results flagged for a closer look

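Con 2 stood far from the other 4 Con arrays for many genes. Of 121 genes named here and tried in the 5 Con arrays, 45 had a highest or lowest array whose gap to its nearest neighbour exceeded 0.71 of the whole range, and in 43 of them this array was Con 2 and its value the highest. Chance alone sets an array apart in about 1 in 20 such groups. Con 2 was chosen by its Adam7 intensity, so this is no independent sign for the genes in the Adam7 order. Among the brightest genes in the Adam7 order this held for Cd52 (4306), Defb22 (1433), Spink8 (2420) and Wfdc15b (1001), with the intensity on Con 2 given for each. Among beta-defensins it held for Defb11 (241.1), Defb23 (180.2), Defb26 (204.6), Defb28 (684), Defb37 (577), Defb38 (763.1), Defb39 (110.9), Defb43 (319.4), Defb48 (129.7) and Spag11a (117.7). Defb30 (145.1) and Defb42 (1574) stood apart likewise but were not in the order. Among protease inhibitors it held for Eppin (194.2), Serpina1f (531.6), Spink10 (215.7), Spink11 (199.1), Spint4 (112.5), Wfdc10 (372.8), Wfdc13 (336.3), Wfdc6a (200.7) and Wfdc6b (249.7). Other secreted or membrane proteins were Adam7 (530.6), C4bp (138.8), Cldn3 (165.3), Crisp4 (135.5), Lcn12 (157.5), Ltf (269.4), Ly6f (399.2), Npy (312.2), Prom2 (312.3) and Rnase12 (323.5). Enzymes, channels, transporters, regulators and a predicted gene product were Cyp17a1 (134.7), Kcnc4 (169), Slc22a5 (535.2), Tfap2b (120.8) and AY761185 (128.4). Slc22a5 was not in the order, nor were the smooth muscle genes Actg2 (3432), Des (439.7) and Myh11 (863.3). On Con 4 the Sertoli cell marker Amh (102.1, the highest) and the seminal vesicle marker Svs4 (94.1, the lowest) stood apart, with all values of both genes near background.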

How the results depend on the processing

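By label, the call of 0 probes higher and 0 lower held without background correction, with median centring and without the level filter. The methods' t-test, run on the values as corrected here, called 1 lower. The numbers of the labels do not pair the arrays (correlations of -0.562, -0.702 and -0.412), and with the replicate block 0 probes were higher and 0 lower (210 at an unadjusted p under 0.05), while the same 6 arrays without it gave 3 lower. Leaving out 1 array gave 0 to 191 higher and 0 to 15 lower, where 191 was without FKO 2 and 15 without Con 5. Without the 3 arrays above 400 the fold changes turned for Adam7 (-0.73), Rnase12 (-0.24), Wfdc10 (-0.22) and Defb38 (-0.46), which follows from that choice of arrays and rests on 1 FKO array. Without FKO 2 they were 5.06, 5.02, 4.75 and 5.68, where the FKO group was FKO 1 and FKO 3, the arrays highest in Adam7. The other causes were not tested.

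The count in the Adam7 order was 110. A minimum difference of 0.5 gave 203 and one of 2 gave 53, by construction. It was 84 without background correction, 110 with median centring, 113 without the filter, and 106 to 133 with 1 of the 5 arrays at or under 400 left out. Recomputed differences of named genes moved by more than the SD between arrays in 17 cases and by less in 1153. Signals near background, as in many genes on the 5 arrays, limit how small a difference can be read.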

Other observations

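Genes outside the lists of secreted proteins also ran in the Adam7 order, which chose them. Gldc, of the glycine cleavage system, read 2686 on FKO 3, 1392 on FKO 1 and 491.1 on Con 2, against 145.4 to 169 on the other 5 arrays. Cwh43, known from yeast to remodel lipid anchors, read 2060, 905.5 and 231.3, against 97.8 to 108.2. Cyp4a12a, a fatty acid hydroxylase, read 1105, 470.1 and 145.1, against 94.92 to 106.8. Ramp1, a partner of calcitonin family receptors, read 954.1, 541.7 and 259.1, against 135.5 to 179.9.

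Of the ion and water transport list, 11 genes passed the level filter and 1 of them was in the order, beside 0.943% of all tested genes. Car4, a membrane carbonic anhydrase, read 919.7 on FKO 3 and 508.6 on FKO 1, but 196.4 on Con 2, within the 155.3 to 217.6 of the others. Of the nuclear receptors and transcription factors known from the tract, 4 passed the filter and 0 were in the order, and Pax8 read 139.6 on FKO 3 and at most 108.9 elsewhere.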
